A study of Homo sapiens with 4 samples.

Results

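The microRNAs (miRNAs) of the miR-371 to miR-373 cluster were followed through 4 small RNA libraries made from RNA pull-down material of 2 human gastric cancer cell lines, HGC27 and AGS. The members were all entries of the count table whose mature name began with hsa-miR-371, hsa-miR-372 or hsa-miR-373. This gave 6 entries from 3 hairpins, out of 843 distinct mature names in the table, of which 570 were known and 273 were predicted by the miRNA caller. Each hairpin was represented by both of its arms, hsa-miR-371a-5p and hsa-miR-371a-3p, hsa-miR-372-5p and hsa-miR-372-3p, and hsa-miR-373-5p and hsa-miR-373-3p (hsa, for human, is left off below).

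Both lines carried the FN1 3′-UTR (the untranslated end of the fibronectin mRNA), stably overexpressed from a lentivirus. No library in the table came from cells without it. Beads coated with a positive or a negative in vitro transcribed RNA probe for this 3′-UTR were incubated with lysate, and the RNA recovered was sequenced. The labels speak of an RNA and its antisense but do not say which of them was called positive. The 4 groups were HGC27 with the negative probe, HGC27 with the positive probe, AGS with the negative probe and AGS with the positive probe, with 1 library each. No group had a replicate, so differences between libraries have only counting error beside them, and differences between cultures or pull-downs were not measured. The amounts are those in the pulled-down material, and the number of molecules in the cells was not measured here.

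Tags counted in the table came to 1452832 and 1296853 in HGC27 (negative and positive probe) and to 2955078 and 1527390 in AGS. Intervals below are 95% intervals and cover counting error only, because they were computed from the tag counts alone. Reads were not collapsed to molecules, so repeated reads of the same molecule would count as separate tags. The error in counting molecules may therefore be larger than these intervals show. Beside each count the table holds a deposited score, which is tags per 1000000 rounded to a whole number. The score was taken over a larger number of tags than the table lists, since the table totals were 35.7% to 50.0% of the recovered divisors. As a check of the line labels, miRNAs of the epithelial miR-200 family and miR-141 had a summed score of 652 and 357 in HGC27 against 8296 and 750 in AGS (negative, then positive probe). The mesenchymal miR-199a and miR-214 entries summed to 2832 and 313 in HGC27 and to 2 and 5 in AGS.

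The cluster is transcribed in pluripotent stem cells and is silent in most adult tissues, and it is known for its return in germ cell tumours. A miRNA finds its targets mainly by the seed, bases 2 to 8 of the mature strand, which pairs with sites in mRNA 3′-UTRs. The 3p arms of miR-372 and miR-373 belong to the same seed family as the miR-302 miRNAs, known for promoting cell cycle entry in embryonic stem cells. One arm of a hairpin is usually kept in the Argonaute protein, and the other, the passenger, is mostly degraded.

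The mature sequences of the 6 entries are shown because their seeds define which members can share targets, with the seed in capitals. The deposited sequences were the same as those of RefSeq (GRCh38.p14), which placed all 6 on the plus strand of chromosome 19.
miR-371a-5p: aCUCAAACugugggggcacu
miR-371a-3p: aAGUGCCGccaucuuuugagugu
miR-372-5p: cCUCAAAUguggagcacuauucu
miR-372-3p: aAAGUGCUgcgacauuugagcgu
miR-373-5p: aCUCAAAAugggggcgcuuucc
miR-373-3p: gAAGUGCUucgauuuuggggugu
miR-372-3p and miR-373-3p shared the seed AAGUGCU. miR-371a-3p had AGUGCCG, the AGUGC letters moved by 1 base, and so belonged to another seed group. The 5p arms shared bases 2 to 7 and differed at base 8, so that each had its own seed. By edit distance, miR-372-3p was 6 bases from miR-371a-3p and 7 bases from miR-373-3p, so the entries with a shared seed were not the closest over their whole length. The longest run of bases that any predicted entry had in common with a member was 9, so 0 predicted entries were added to the set.

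In GRCh38.p14 the MIR371A hairpin lay at chr19:53787675-53787741, MIR372 at chr19:53787890-53787956 and MIR373 at chr19:53788705-53788773. The gaps between neighbouring hairpins were 148 and 748 bases. Within them miR-371a-5p was at chr19:53787680-53787699, miR-371a-3p at chr19:53787716-53787738, miR-372-5p at chr19:53787895-53787917, miR-372-3p at chr19:53787931-53787953, miR-373-5p at chr19:53788710-53788731 and miR-373-3p at chr19:53788748-53788770. In the GENCODE annotation, exons of the long noncoding RNA AC008753.3 on the minus strand covered both arms of MIR371A and of MIR372. No annotated exon of another gene covered MIR373. A further hairpin, MIR371B, lay opposite MIR371A on the minus strand, and neither of its arms was in the table. The nearest hairpin of the placental chromosome 19 cluster (C19MC), MIR519A2, was 25245 bases away.

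**Figure D1:**
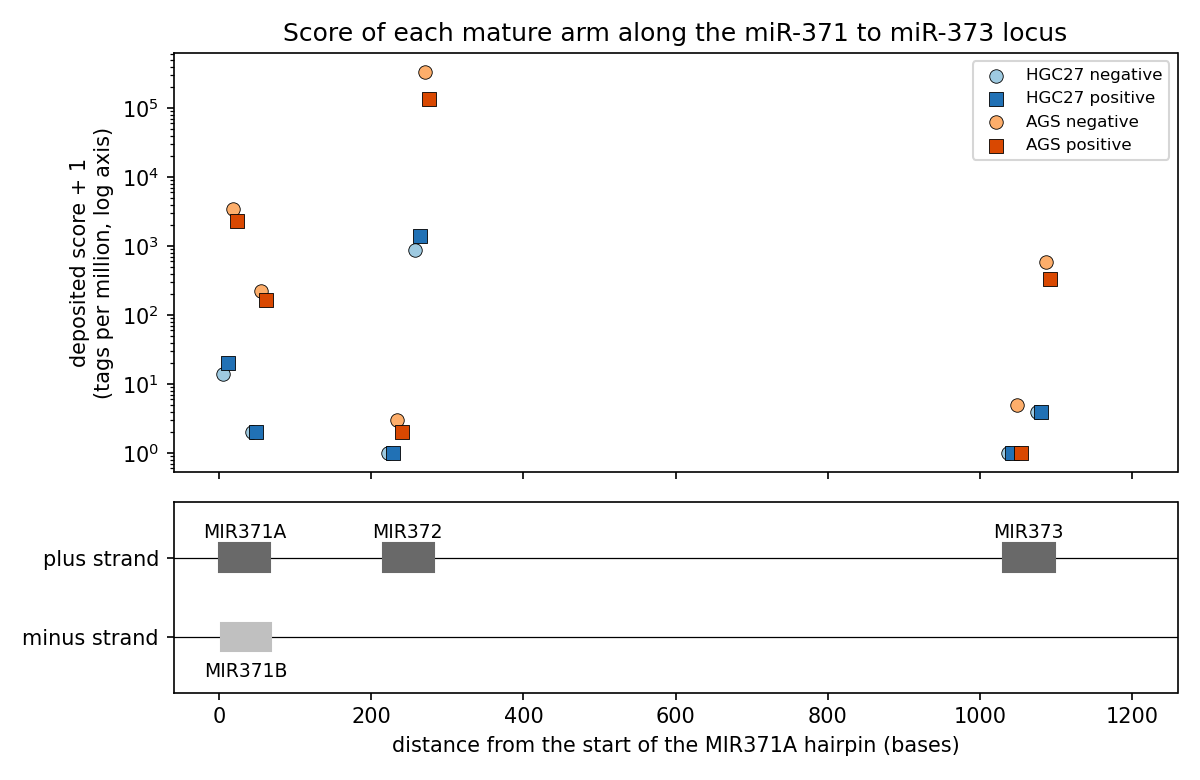
Deposited score + 1 (tags per 1000000, log axis) of each mature arm against its distance in bases from the start of the MIR371A hairpin, with the hairpins of both strands drawn to scale below; circles are negative and squares positive probe libraries, set apart slightly so that equal values can be seen. The AGS libraries stand above the HGC27 libraries at miR-371a-5p, miR-371a-3p, miR-372-3p and miR-373-3p, and miR-372-3p is the highest arm in each of the 4 libraries.

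The cluster took a far larger share of the AGS libraries than of the HGC27 libraries. All 6 entries together held 2628 of the HGC27 tags with the negative probe, 0.181% (Wilson interval 0.174% to 0.188%), and 3947 with the positive probe, 0.304% (0.295% to 0.314%). In AGS they held 2419232 tags with the negative probe, 81.9% (81.8% to 81.9%), and 584555 with the positive probe, 38.3% (38.2% to 38.3%). Within the table the cluster outweighed the sum of all other entries in AGS with the negative probe and not with the positive probe. Over the larger divisor of the deposited score, its share in AGS was 33.7% and 13.7%, so it was no majority of those tags. The tags outside the cluster numbered 535846 and 942835 in the AGS libraries and 1450204 and 1292906 in HGC27. The most abundant entry outside the cluster was miR-148a-3p in 3 libraries, and let-7i-5p in AGS with the positive probe. The cluster had 16.8 times the count of miR-148a-3p in AGS with the negative probe and 2.70 times the count of let-7i-5p in AGS with the positive probe.

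hsa-miR-372-3p, the main product of the MIR372 hairpin and a repressor of the tumour suppressor kinase LATS2, made up nearly the whole cluster. Its counts were 2580 in HGC27 with the negative probe, 3885 in HGC27 with the positive probe, 2388335 in AGS with the negative probe and 572497 in AGS with the positive probe. Its scores in the same order were 887, 1406, 332676 and 133986. Both AGS libraries lay above both HGC27 libraries. The positive probe library had the higher count in HGC27 and the lower count in AGS. Ranked by count among the entries listed in a library, miR-372-3p stood at 45 of 574 and 34 of 609 in HGC27 and at 1 of 342 and 1 of 361 in AGS. It held 98.2%, 98.4%, 98.7% and 97.9% of the cluster's tags in the 4 libraries, so this share stayed within 1 percentage point while the cluster's total changed.

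miR-371a-5p, the larger product of MIR371A, had 37 and 53 counts in HGC27 (negative, then positive probe) and 25095 and 9942 in AGS. Its scores were 13 and 19 in HGC27 and 3496 and 2327 in AGS. It was well down the order in HGC27, at ranks 199 and 165, and near the top in AGS, at ranks 7 and 14. miR-371a-3p, from the other arm of the same hairpin and known as a serum marker of germ cell tumours, had 2 counts in each HGC27 library, which is the lowest count listed anywhere in the table. It had 1582 and 708 counts in AGS, with scores of 220 and 166.

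miR-373-3p, the second AAGUGCU member, known for promoting invasion of tumour cells, had 9 and 7 counts in HGC27 and 4181 and 1404 in AGS. Its scores were 3 in both HGC27 libraries and 582 and 329 in AGS. miR-373-3p was thus a minor product beside miR-372-3p in each library, although the hairpins lie on the same strand within a short stretch. The passenger arm miR-372-5p was not listed in HGC27 and had 11 and 4 counts in AGS. The passenger arm miR-373-5p had 28 counts in AGS with the negative probe and was listed in no other library. A count of 0 allowed shares of up to 0.000206% and 0.000231% in HGC27 and, for miR-373-5p, up to 0.000196% in AGS with the positive probe.

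**Figure D2:**
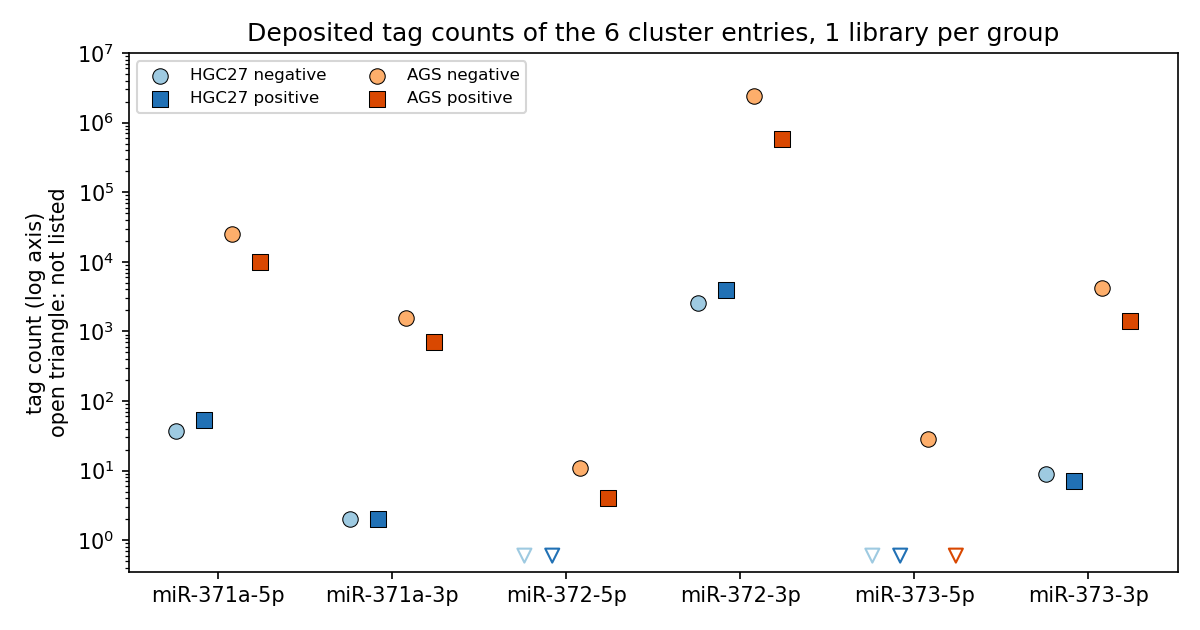
Tag counts (log axis) of the 6 cluster entries, with 1 point for each library and open triangles at the foot where an entry was not listed; circles are negative and squares positive probe libraries. The AGS points lie above the HGC27 points at every entry listed in both lines, and the positive probe point of AGS lies below its negative probe point at each entry or is not listed.

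The arms were used in the same direction in all libraries that had counts for both. MIR371A gave mostly its 5p arm, with 94.9% of its tags in HGC27 with the negative probe (37 of 39, Wilson interval 83.1% to 98.6%) and 96.4% with the positive probe (53 of 55, 87.7% to 99.0%). In AGS the 5p share of MIR371A was 94.1% (93.8% to 94.3%) with the negative probe and 93.4% (92.9% to 93.8%) with the positive probe. The intervals of the 4 libraries overlapped between the lines. Those of the AGS libraries overlapped only at their ends, which does not show that the arms were recovered alike with both probes. In AGS the intervals of the log2 ratio of positive over negative probe were apart, -0.62 to -0.55 (5p) and -0.54 to -0.28 (3p). MIR372 and MIR373 gave mostly the 3p arm. The 5p share of MIR372 was 0.00046% and 0.00070% in AGS, and was 0 of 2580 and 0 of 3885 in HGC27, which allows a share of up to 0.116% and 0.0772%. The 5p share of MIR373 was 0.665% (0.461% to 0.960%) in AGS with the negative probe and 0 of 1404 with the positive probe, which allows up to 0.214%. With 9 and 7 tags of MIR373 in the HGC27 libraries, its arm use was not measurable there.

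Within a library, the ratio of 2 members' counts does not depend on how the library is scaled. miR-372-3p had 69.7 tags for each tag of miR-371a-5p in HGC27 with the negative probe (exact interval 50.5 to 99.3) and 73.3 with the positive probe (55.9 to 98.0). The HGC27 ratios were not distinguishable by their counts. In AGS the same ratio was 95.2 (94.0 to 96.4) with the negative probe and 57.6 (56.5 to 58.7) with the positive probe. These AGS intervals did not overlap, so miR-372-3p was lower relative to miR-371a-5p in the AGS positive probe library. With 1 library for each probe this compares those libraries.

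miR-372-3p per miR-373-3p was 287 (151 to 628) and 555 (269 to 1381) in HGC27, and 571 (554 to 589) and 408 (387 to 430) in AGS. miR-371a-5p per miR-371a-3p was 18.5 and 26.5 in HGC27, both on 2 counts of the 3p arm, and 15.9 (15.1 to 16.7) and 14.0 (13.0 to 15.2) in AGS. In AGS, then, miR-372-3p was the lower relative to each of miR-371a-5p and miR-373-3p with the positive probe. The ratio of the MIR371A arms moved less, and its AGS intervals overlapped only at their ends.

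**Figure D3:**
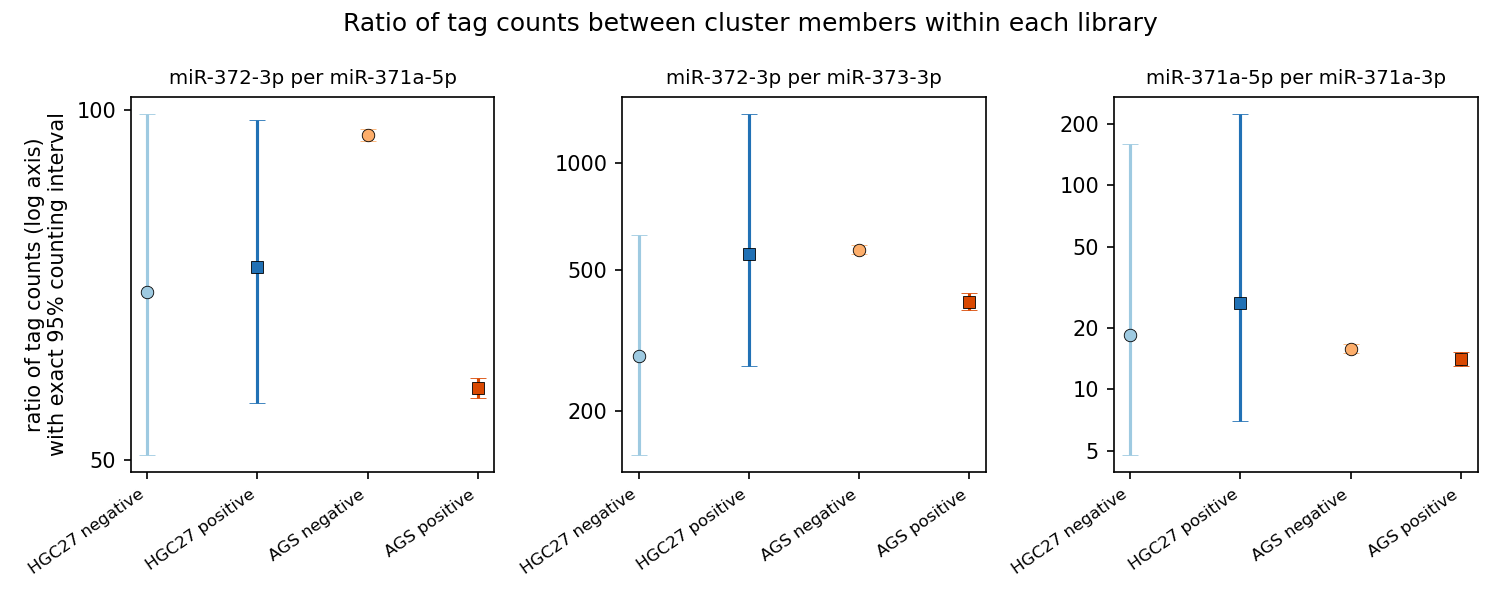
Ratio of tag counts between 2 cluster members in each library (log axis, 1 point for each library, bars are exact 95% counting intervals), for miR-372-3p per miR-371a-5p, miR-372-3p per miR-373-3p and miR-371a-5p per miR-371a-3p. In the first panel the AGS intervals are apart, at 95.2 and 57.6, and in each panel the HGC27 intervals are wide and overlap.

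The comparison of the probes asks which miRNAs were recovered with the FN1 3′-UTR. In each line the ratio was taken as (score + 1) with the positive probe over (score + 1) with the negative probe, and an entry was called at a ratio of at least 2 or at most 0.5. In HGC27, 0 of the 4 listed members were called. Of all 755 entries listed in HGC27, 71.5% were called, 37.5% higher and 34% lower, so the rule is a loose one in these libraries. miR-372-3p was 1.58-fold higher with the positive probe, a log2 ratio of 0.66 (exact interval 0.59 to 0.74). miR-371a-5p had a log2 ratio of 0.51 (-0.04 to 1.24), which its 37 and 53 counts do not separate from 0. miR-371a-3p and miR-373-3p had a log2 ratio of 0, on 2 and 2 and on 9 and 7 counts. The median log2 ratio of the 4 members was 0.26, beside 0 over all entries. Among the 366 entries that reached 10 counts in an HGC27 library, 239 had a lower ratio than miR-372-3p, which places it inside the middle of the distribution (quartiles -1.24 and 1.13).

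In AGS all 6 members had a log2 ratio below 0. miR-372-3p was 2.48-fold lower with the positive probe, a log2 ratio of -1.31 (-1.32 to -1.31). miR-373-3p had a log2 ratio of -0.82 (-0.91 to -0.74), miR-371a-5p of -0.59 (-0.62 to -0.55) and miR-371a-3p of -0.40 (-0.54 to -0.28). The ratios of their raw counts between the AGS libraries stood in the same order, which a scaling of whole libraries leaves as it is. miR-372-5p had 11 and 4 counts, a log2 ratio of -0.58 that its counts do not separate from 0. miR-373-5p went from 28 counts to 0, which is at least 5.55-fold lower when the 0 is set to the 3 counts that it allows in that library. This bound takes the 28 counts as they stand, and with their counting error the exact interval of the ratio reached 0.237.

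By the ratio rule 2 of the 6 members, miR-372-3p and miR-373-5p, were called lower in AGS, and 0 were called higher. By the score, the call of miR-373-5p depended on the pseudocount, and its log2 ratio was -0.49 when 10 was added in place of 1. The exact interval from its counts ended at a ratio of 0.237, below 0.5. Of all 459 entries listed in AGS, 62.1% were called, with 39.4% higher and 22.7% lower. The members' median log2 ratio was -0.70, beside 0 over all entries. Among the 230 entries that reached 10 counts in an AGS library, 56 had a lower ratio than miR-372-3p, and the quartiles were -1.26 and 2.00. At -1.31, miR-372-3p lay just below the lower quartile there. The members were thus within the range of many other entries in both lines, and the counting intervals of miR-372-3p lay on opposite sides of 0.

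**Figure D4:**
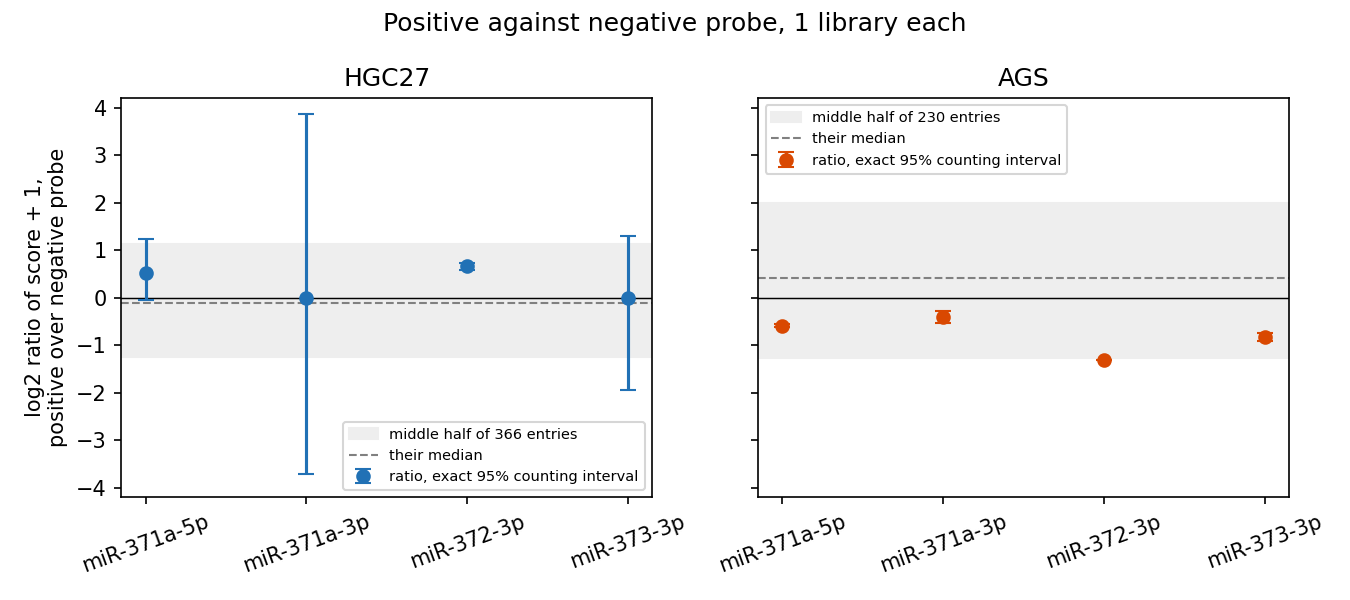
Log2 ratio of (score + 1) with the positive over the negative probe for the 4 members listed in both lines, with exact 95% counting intervals; the grey band spans the quartiles and the dashed line is the median of all entries that reached 10 counts in one of its libraries (366 in HGC27, 230 in AGS). miR-372-3p lies above 0 in HGC27 (0.66) and below 0 in AGS (-1.31), and the intervals of miR-371a-3p and miR-373-3p in HGC27 are wide.

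The size of the AGS change depended on what the libraries were scaled to. For miR-372-3p in AGS, the log2 ratio was -1.11 with the table totals, -2.03 with edgeR's TMM library sizes, -1.67 with DESeq2 size factors, -2.06 with raw counts and -2.88 with the totals of all entries outside the cluster. miR-371a-5p ran from -0.38 to -2.15 over the same scalings, miR-373-3p from -0.62 to -2.39 and miR-371a-3p from -0.21 to -1.97. All 4 stayed below 0, and each passed the 2-fold mark with the totals outside the cluster. The median over the 230 entries moved as well, from 0.42 with the deposited score to -1.01 with the totals outside the cluster. In HGC27, miR-372-3p lay between 0.59 and 0.85 and miR-371a-5p between 0.51 and 0.72, so the direction of both held. miR-373-3p in HGC27 moved from 0 to between -0.32 and -0.07.

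**Figure D5:**
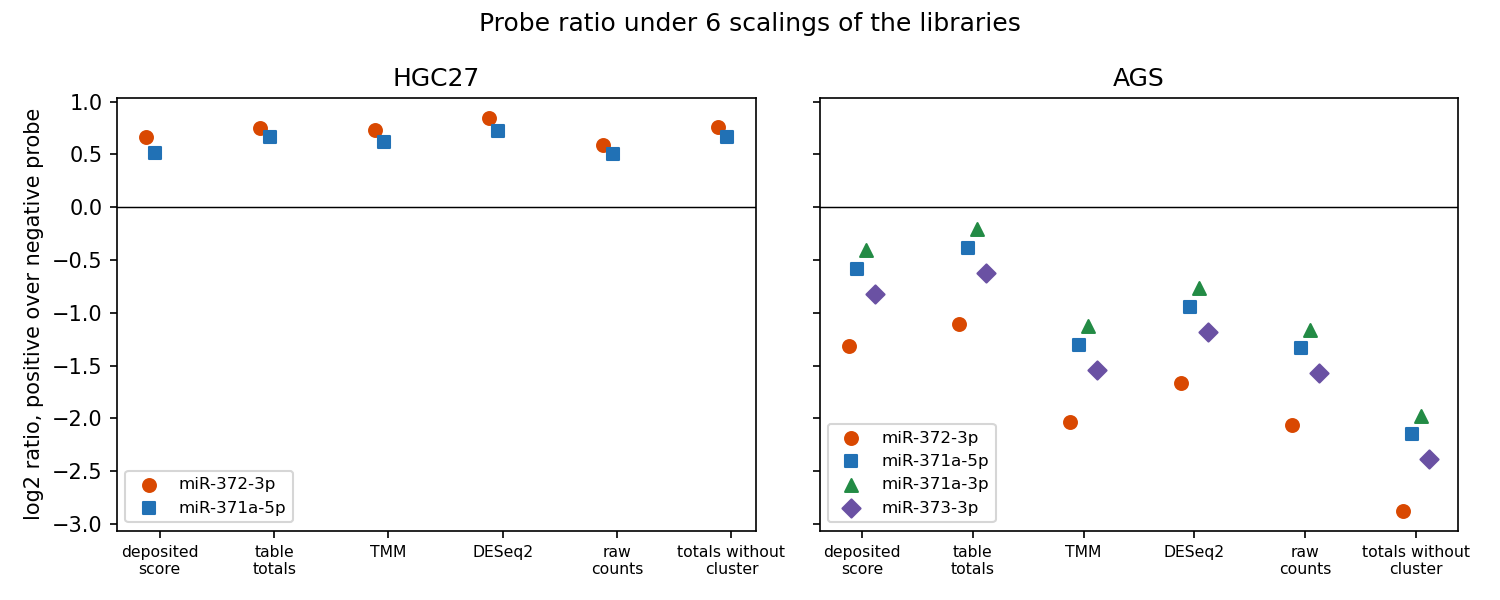
Log2 ratio of the positive over the negative probe under 6 scalings of the libraries (horizontal axis) for members listed in both lines; symbols stand for members, and miR-371a-3p and miR-373-3p are not drawn in HGC27, where they had under 10 counts. In HGC27 both members drawn stay above 0, and in AGS the 4 members drawn stay below 0 while the size changes, with miR-372-3p between -1.11 and -2.88.

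A fit over both lines treated the lines as the replicates of each probe, with the line as a covariate. edgeR's quasi-likelihood test on the counts, with Benjamini-Hochberg adjustment, called 19 of the 271 entries tested, 7.01%. Of the members, 4 passed the filter on low counts (miR-371a-5p, miR-371a-3p, miR-372-3p and miR-373-3p) and 0 of them were called, and 0 had an unadjusted p under 0.05. The log2 fold change of miR-372-3p in this fit was -0.73 ± 3.50 (SE, 2 libraries for each probe, edgeR adjusted p = 0.923). miR-371a-5p was at -0.44 ± 1.57 (edgeR adjusted p = 0.897), miR-371a-3p at -0.88 ± 1.34 (edgeR adjusted p = 0.743) and miR-373-3p at -1.07 ± 1.32 (edgeR adjusted p = 0.700). For each of these 4 members the standard error exceeded the change. By the deposited score, the direction of the probe ratio differed between the lines for miR-372-3p and miR-371a-5p. The SE was derived from the log2 fold change and the F statistic of the test, and is not a spread measured between libraries. With 1 residual degree of freedom, the fit pooled its spread over the entries. These values do not show that the probes recovered the members alike.

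The lines were compared within each probe, as a description, because the cluster was chosen for its abundance in AGS. With the negative probe, AGS over HGC27 gave a log2 ratio of 8.55 (8.49 to 8.61) for miR-372-3p, a 375-fold higher value. It gave 7.96 (7.64 to 8.61) for miR-371a-5p, 7.19 (6.63 to 8.69) for miR-373-3p and 6.79 (6.47 to 11.37) for miR-371a-3p. With the positive probe the values were closer together, at 6.57 (6.53 to 6.62) for miR-372-3p, 6.86 (6.53 to 7.34) for miR-371a-5p, 6.37 (5.97 to 8.34) for miR-373-3p and 6.38 (5.98 to 10.89) for miR-371a-3p. The intervals of neighbours in either order overlapped. The order with the positive probe also depended on the scaling, since miR-371a-3p came first with table totals, at 7.51 beside 7.28 for miR-371a-5p, and rested on 2 counts in HGC27.

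With the negative probe all 6 members were at a ratio of at least 2 in AGS, where 6.02% of the 615 listed entries were and 92% were called in either direction. With the positive probe all 5 listed members were, where 12.9% of 684 entries were and 88.2% were called in either direction. miR-372-5p and miR-373-5p were listed only in AGS. They entered these counts through the line where they were higher, and could not have been lower there. By the score, the passenger arms reached a ratio of 2 only with a small pseudocount. The exact interval from the counts of miR-373-5p with the negative probe, 28 and 0, began at 2.88-fold. That of miR-372-5p, on 11 and 0 counts, began at 1.02-fold. With 10 added to the scores, miR-372-5p had log2 ratios of 0.26 and 0.14 (negative, positive probe) and miR-373-5p of 0.49 with the negative probe. The 4 and 0 counts of miR-372-5p with the positive probe do not separate the lines. The median log2 ratio over all entries was -1.58 and -1.01, so most entries listed in these libraries had lower scores in AGS, and the members went the other way. These medians rest on the scaling in the same way as the probe ratios, and TMM or DESeq2 scaling put miR-372-3p at up to 11.65 with the negative probe and 9.13 with the positive probe. Expressed per 1000000 tags, HGC27 held 0.267% (0.257% to 0.277%) of the AGS level of miR-372-3p with the negative probe and 1.05% (1.02% to 1.08%) with the positive probe. Among the 7 known entries outside the cluster that scored 1000 or more in each AGS library, the lowest such share, over the summed scores of both probes, was 35.1% for miR-125a-5p, beside 0.491% for miR-372-3p. The summed scores hide a difference between the probes, since miR-125a-5p in HGC27 stood at 194% of its AGS level with the negative probe and at 19.2% with the positive probe. With the negative probe the lowest of the 7 was miR-99b-5p at 185%, and so these 7 entries all had higher scores in HGC27 there. This direction depended on the scaling. The raw negative probe counts of miR-125a-5p (15304 and 12024), miR-99b-5p (113717 and 85332) and miR-7-5p (39419 and 31405) were higher in AGS than in HGC27. Those of let-7i-5p, let-7g-5p, let-7f-5p and miR-148a-3p were higher in HGC27. The limit of 1000 left out entries with a lower score in an AGS library that were also higher in AGS. With the negative probe the log2 ratio of AGS over HGC27 was 6.19 for miR-200b-3p, 5.88 for miR-429 and 5.81 for miR-302b-3p. With the positive probe it was 1.09, 2.94 and 5.09 in the same order. Whether AGS reads carried over into the HGC27 libraries make up part of these counts was not tested.

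Other entries of the table carried the AAGUGCU seed of miR-372-3p. They were miR-302a-3p, miR-302b-3p, miR-302c-3p and miR-302d-3p, encoded on another chromosome, and 2 predicted entries that the table places on chromosomes 3 and 5. Their sequences are shown for the 2 with the highest counts, to set beside miR-372-3p.
miR-302b-3p: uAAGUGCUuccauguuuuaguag
predicted entry on chromosome 5: aAAGUGCUgggauuaca
miR-302b-3p was listed in neither HGC27 library and had 396 and 140 counts in AGS (scores of 55 and 33). miR-302a-3p had 18 and 5 counts in AGS, and miR-302d-3p had 14 with the negative probe only. The predicted entry on chromosome 5 went the other way between the lines, with 33 and 34 counts in HGC27 and 10 and 0 in AGS. The 8 entries with this seed, members included, held 81.0% of the AGS tags with the negative probe and 37.6% with the positive probe, and 0.180% and 0.303% in HGC27. miR-372-3p alone supplied 98.4% and 98.9% of these tags in HGC27 and 99.8% and 99.7% in AGS.

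Of the miR-302 and miR-367 cluster, which is also known from pluripotent stem cells, 5 entries were in the table and 0 of them were listed in HGC27. In AGS, 4 were listed with the negative probe and 3 with the positive probe, with 432 and 148 counts in all. They were at a ratio of at most 0.5 with the positive probe in 3 of 5 cases and at least 2 in 1 case, with a median log2 ratio of -1, mostly on few counts. Over all entries listed in AGS these calls made up 22.7% and 39.4%, and the median was 0. Of C19MC, the placental neighbour on the same chromosome, 4 entries were in the table. miR-522-3p had 2, 7, 107 and 410 counts in the order HGC27 negative, HGC27 positive, AGS negative and AGS positive, and so was higher with the positive probe in AGS, at a log2 ratio of 2.60. miR-519a-3p had 11 counts in AGS with the negative probe and was listed in no other library. Of these relatives and neighbours, miR-302b-3p and miR-522-3p were the entries with over 100 counts in both AGS libraries, far below miR-372-3p.

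The table held 7 entries with bases 2 to 7 of miR-372-3p at another offset near their 5′ end. Of these, 6 were miR-17-5p, miR-20a-5p, miR-20b-5p, miR-93-5p, miR-106a-5p and miR-106b-5p, members of the proliferation-related miR-17 family, and 1 was a predicted entry with 9 counts in HGC27 with the positive probe. miR-519a-3p of C19MC has the same bases 2 to 7 as miR-372-3p at the same offset and another base 8, and is not among them. The 7 entries summed to scores of 16562 and 1962 in HGC27 and 1195 and 59 in AGS. Between the lines this was the opposite of the cluster. The median log2 probe ratio was -2.68 in HGC27 and -3.82 in AGS, beside 0 over all entries in each line. miR-20a-5p led them with 35380, 3272, 6478 and 171 counts in the 4 libraries.

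The entries whose profile over the 4 libraries was most like that of miR-372-3p were found by the Euclidean distance between log2(score + 1) values, each centred on its own mean. Over 186 known entries outside the cluster with at least 100 counts, the nearest were miR-302b-3p (2.21), miR-429 (3.19), miR-200b-5p (3.63), miR-31-5p (4.08) and miR-200a-3p (4.21), where the median distance was 10.95. miR-371a-5p (0.54), miR-373-3p (0.98) and miR-371a-3p (1.26) were nearer than any of these, and the passenger arms miR-372-5p (6.31) and miR-373-5p (6.46) were farther away. The distance over 4 libraries mostly measures the difference between the lines, and the libraries share their depth with every entry.

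The FN1 3′-UTR taken from a GENCODE transcript (1101 bases) was searched for the reverse complements of the members' seeds, since the probes were made to it. The motifs of bases 2 to 7 were GCACTT for miR-372-3p and miR-373-3p, GGCACT for miR-371a-3p and TTTGAG for the 5p arms. The motifs of bases 2 to 8 were AGCACTT for miR-372-3p and miR-373-3p, CGGCACT for miR-371a-3p, GTTTGAG for miR-371a-5p, ATTTGAG for miR-372-5p and TTTTGAG for miR-373-5p, each of which contains the shorter motif of the same entry. On the sense strand 0 matches were found for each motif, and 0 on the antisense strand. Of the 440 distinct 6-base motifs of all known entries, 25.7% had a sense and 22.0% an antisense match, and of the 478 distinct 7-base motifs, 7.53% and 6.90%. These letters are therefore not in this window, whatever the length of the 3′-UTR that the probes were made to.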

How the data were processed

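Small RNA of the pull-down material was sequenced by the authors, with 1 library for each line and probe. Per the labels, cutadapt 1.9.3 and Novoalign 3.02.12 were used with hg38, and known and predicted miRNAs were counted. The deposited table holds, for each mature entry and library, a tag count and a score that the authors made from it as tags per 1000000, rounded to whole numbers. Entries listed more than once under the same name were counted once, leaving 843 names. The recovered divisors of the score exceeded the table totals, so that tags outside the table entered the scaling. Counting near-identical mature sequences could split tags between entries, and low counts are uncertain.

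Groups were taken from the sample titles. Log2 ratios used score + 1, with exact (Clopper-Pearson) 95% intervals from the counts, and shares have Wilson 95% intervals. A count of 0 was set to 3 counts in that library for lower bounds. The probe effect over both lines was tested with edgeR 4.0.16 (quasi-likelihood, TMM, filterByExpr, line as covariate, Benjamini-Hochberg over 271 entries, threshold 0.05) in R 4.3.3. The script was first run on simulated counts. The simulation it had to pass had less spread between libraries than these data and no planted change in the most abundant entries. It does not show what the fit can find here. limma 3.58.1 and DESeq2 1.42.0 served as alternatives. Other scalings, pseudocounts of 0.1 and 10, other filters, other ratio limits, other denominators of the shares and leaving out a line were tried.

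The members, lists and tests were chosen with earlier results of these data known. Members were named by their mature names; entries of the same seed, of the miR-302 and miR-367 cluster and of C19MC were named from 10 counts in all, and the 5 nearest profiles by distance. The rule for entries high in AGS asked for 10, and 7 met it. miR-148a-3p, let-7i-5p, miR-20a-5p and the list of entries at another seed offset were named after their values were seen.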

Additional observations from a re-analysis of the deposited data

Results flagged for a closer look

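The direction of the probe ratio was opposite in the lines for miR-372-3p, miR-371a-5p and the cluster as a whole. The log2 ratio of the positive over the negative probe was 0.66 in HGC27 and -1.31 in AGS for miR-372-3p, a difference of 1.98. For miR-371a-5p it was 0.51 and -0.59, a difference of 1.10, and for the sum of the 6 members 0.66 and -1.30, a difference of 1.96. The difference between the lines was not tested, since 1 library for each line and probe leaves no spread to test it against. The HGC27 value of miR-371a-5p is not separated from 0 by its counts. The groups were too small for a search for outlying libraries.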

How the results depend on the processing

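The labels give no replicate numbers, and the fit over both lines pairs the probes by line. With 1 library a group, counting error is the only spread, and the 2 to 9 counts of miR-371a-3p and miR-373-3p in HGC27 leave their ratios there unresolved. Pseudocounts of 0.1 and 10 left the cluster's ratios within their counting intervals, and the ratios of single members stayed within theirs in 21 of 21 cases with 0.1 and 13 of 21 with 10. Over these and the 5 scalings together they did so in 91 of 147 cases. The cluster's log2 probe ratio in HGC27 was 0.75 with table totals, 0.75 with totals outside the cluster, 0.84 with DESeq2 size factors and 0.59 with raw counts. In AGS it was -1.10 with table totals, -2.86 with totals outside the cluster, -2.02 with TMM, -1.66 with DESeq2 size factors and -2.05 with raw counts. In the same order (table totals, outside the cluster, TMM, DESeq2, raw counts) its log2 ratio of AGS over HGC27 was 8.82, 11.28, 11.58, 11.64 and 9.85 with the negative probe and 6.97, 7.67, 8.83, 9.14 and 7.21 with the positive probe. Over the divisor of the score, the cluster's share was 0.0904% and 0.143% in HGC27 (negative, positive probe) and 33.7% and 13.7% in AGS. Over known entries only, it was 82.9% and 38.6% in AGS. No predicted entry could be added to a member or an arm, so that those alternatives gave the same shares. At a ratio of at least 4 or at most 0.25, the entries called fell from 540 to 122 (probe, HGC27), 285 to 103 (probe, AGS), 566 to 281 (line, negative probe) and 603 to 265 (line, positive probe). With at least 10 counts in a library they numbered 225, 165, 312 and 291.

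In the fit over both lines, 19 entries were called by edgeR with TMM, 15 with the cluster left out of the scaling, 32 with DESeq2 size factors and 49 by the DESeq2 Wald test. It was 0 with library totals (52 at an unadjusted p under 0.05), without the line as covariate (17), with limma-voom (72), when low counts were kept (66) and when each of the 4 libraries had to reach 10 counts (16). No member was called in any of these fits. miR-371a-5p turned from -0.44 to 0.14 with library totals. Leaving out a line gives a value with no test. Without the HGC27 libraries the log2 fold changes were -2.05 (miR-372-3p), -1.56 (miR-373-3p), -1.32 (miR-371a-5p) and -1.15 (miR-371a-3p), and without the AGS libraries 0.84, -0.10, 0.76 and 0.17 in the same order. The cause of these shifts was not tested.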
